A study of Mus musculus with 9 samples.

Results

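The 10 genes described here (Il1b, Tnf, Il6, Lcn2, Saa3, Ccl2, Cxcl10, Nfkbia, Icam1 and Cd14) are genes that bacterial lipopolysaccharide (LPS) is known to induce, and they were examined because the deposited text of some samples names an LPS injection that the sample titles do not. They were chosen by gene symbol. All 10 were measured, each by 1 probe set, among 21367 probe sets with a single gene symbol. LPS is the outer-membrane glycolipid of Gram-negative bacteria. Cd14 hands it to the receptor Tlr4 with its partner Ly96, and adaptor proteins then release the transcription factor NF-kB from its inhibitors. In brain, LPS given into the body is known to raise cytokine, chemokine and acute phase transcripts in microglia, vessel walls and astrocytes; the cytokine transcripts are short-lived, and Lcn2 stays raised for longer.

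Olfactory bulb RNA from male mice of the outbred ICR stock, 8 weeks old, was measured on 9 Clariom S mouse arrays. By title, 3 arrays came from mice that breathed the vehicle, the detergent Tween 80 at 1%, over 7 days, 3 from mice that breathed linalyl acetate at 1%, and 3 from mice that breathed it at 10%. Linalyl acetate is a scented ester found in lavender oil; whether its aerosols also held Tween 80 is not stated. All 3 groups went through a tail suspension test, which scores immobility, after 30 min of inhalation. The sample descriptions differ from the titles for 5 arrays: oral dosing at 10 mg/kg for 10 days, a single injection at 0.85 mg/kg into the belly, and the tail suspension test 24 h later. In that text vehicle replicates 1 and 2 received saline by both routes, vehicle replicate 3 received oral saline and injected LPS, and 1% replicates 1 and 2 received oral oleacein, an olive oil phenolic, and injected LPS. The other 4 arrays have no description. Groups below follow the titles, and whether each array was 1 mouse is not given, so the p-values measure the spread between these samples, which may be technical.

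Array medians were 6.92 to 6.97 log2 units. The tissue label was met by 11 probe sets for olfactory bulb neuron markers, which averaged 12.8 to 13.8 log2 units, but vehicle replicate 3, 1% replicate 2 and 10% replicate 2 stood apart: bulb neuron markers were lowest in these (12.8, 12.9 and 12.9 log2 units), and 16 probe sets for markers of cortex and anterior olfactory areas were highest (10.2, 10.2 and 10.2, against 9.19 to 9.51 in the other 6 arrays). Of the arrays named with LPS, 2 of 3 are thus among these. In whole tissue, fewer cells of a type and less RNA per cell cannot be told apart.

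For several of these genes the promoter carries the short sequence that NF-kB binds, which is why such genes serve as a readout of LPS. RefSeq promoter windows (GRCm38.p6, 250 bases before to 50 after the start) were searched for 8 of the 10 genes. Ccl2 had no usable window, and Cd14 was left out of the search. The motif searched was GGANNTTCC on both strands (GGAANNTCC as its reverse complement), and 5 of the 8 windows held it, against 4.26% of all 32851 windows. A match is a description of letters only. The sequences below, 5′ to 3′ on the gene's strand, show each gene's match in capitals, the one nearest the start for Nfkbia:
Tnf, chr17:35202166-35202257, minus strand, match 212 bases before the start: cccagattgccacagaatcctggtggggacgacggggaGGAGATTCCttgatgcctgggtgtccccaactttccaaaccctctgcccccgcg
Il6, chr5:30013025-30013113, plus strand, match 43 bases before the start: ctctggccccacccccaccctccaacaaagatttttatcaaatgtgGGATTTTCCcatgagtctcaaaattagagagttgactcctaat
Cxcl10, chr5:92348994-92349093, minus strand, match 158 bases before the start: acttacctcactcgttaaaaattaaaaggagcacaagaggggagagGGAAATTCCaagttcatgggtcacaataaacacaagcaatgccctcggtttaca
Nfkbia, chr12:55492648-55492722, minus strand, match 29 bases before the start: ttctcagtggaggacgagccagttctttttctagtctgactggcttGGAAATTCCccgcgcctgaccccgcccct
Icam1, chr9:21015741-21015840, plus strand, match 153 bases before the start: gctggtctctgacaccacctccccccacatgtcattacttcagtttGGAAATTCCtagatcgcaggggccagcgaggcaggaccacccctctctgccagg

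The 9 letters GGAAATTCC were shared by the windows of Cxcl10, Nfkbia and Icam1. Nfkbia held a second match, GGACTTTCC, 178 bases before its start. Il1b, Lcn2 and Saa3 had none in their windows. A second motif, AAANNGAAA (reverse complement TTTCNNTTT), of the kind found in interferon response elements, occurred in the windows of Cxcl10 and Saa3 and in 10.6% of all windows.

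Across the 9 arrays the 10 genes varied about as much as any gene on the array. Their median SD was 0.254 log2 units, against 0.258 over all tested genes, and their median range was 0.805 against 0.80. Saa3 had the narrowest range, 0.39, and Il1b the widest, 1.10. By mean signal, 9 of the 10 lay in the dimmer part of the array, at or below the median of all genes, and Nfkbia was the exception. The medians of 5222 negative control probe sets were 6.87 to 7.12 log2 units per array; 9 genes lay below these values on all 9 arrays and Nfkbia above them on all 9. Those medians are close to the array medians and set no floor for detection. Background probe sets of middle GC content (GC counts of 8 to 17) spanned 2.61 to 4.62 log2 units. Above that span on all 9 arrays lay 6 of the 10 (Il1b, Saa3, Icam1, Ccl2, Nfkbia and Cd14). Il6, Cxcl10 and Tnf lay within it, and Lcn2 lay on both sides of its upper end. All 23 background probe sets together spanned 2.61 to 7.62 log2 units. Only Nfkbia, with a lowest value of 7.92, lay above this wider span, and the other 9 genes lay within it. Which genes lay above background thus depended on the GC range taken. No detection call for a single probe set was used here, and differences of dim genes may understate changes in RNA.

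Cd14, the protein that hands LPS to Tlr4, gave 5.86, 6.16 and 6.23 log2 units in vehicle replicates 1, 2 and 3, 5.71, 6.24 and 5.96 in the 1% arrays, and 6.15, 6.10 and 6.42 in the 10% arrays. Replicates of the 10% and the 1% group exceeded vehicle replicate 3, and all 3 groups overlapped.

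Nfkbia encodes the inhibitor that holds NF-kB in the cytoplasm, and NF-kB induces it in turn. It stood at 8.23, 8.64 and 7.92 log2 units in vehicle replicates 1, 2 and 3, at 8.37, 8.50 and 8.38 in the 1% arrays, and at 7.99, 8.45 and 7.98 in the 10% arrays. Vehicle replicate 3 was the lowest of the 9 and vehicle replicate 2 the highest, so the vehicle group spanned the whole range. A pair of 10% arrays lay within 0.1 log2 units of vehicle replicate 3.

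Of the cytokines, Il1b, the secreted activator of the interleukin-1 receptor, measured 5.35, 5.44 and 5.36 log2 units in vehicle replicates 1, 2 and 3, 5.39, 5.46 and 4.89 in the 1% arrays, and 5.24, 5.99 and 5.47 in the 10% arrays. Vehicle replicate 3 fell between the other vehicle arrays; the extremes were 1% replicate 3 and 10% replicate 2, neither with a description. Tnf, tumour necrosis factor, measured 3.02, 3.06 and 3.23 log2 units in the vehicle arrays, 3.03, 3.12 and 2.81 in the 1% arrays, and 3.13, 2.80 and 3.17 in the 10% arrays. The highest value was that of vehicle replicate 3, 0.06 over 10% replicate 3. Il6, which drives the acute phase response, measured 3.68, 3.87 and 3.32 log2 units in the vehicle arrays, 3.57, 3.70 and 3.90 in the 1% arrays, and 3.82, 4.05 and 3.17 in the 10% arrays. Here vehicle replicate 3 was the second lowest, and the highest and lowest arrays were both from the 10% group.

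The chemokine Ccl2, which draws monocytes, was at 5.33, 5.40 and 5.21 log2 units in vehicle replicates 1, 2 and 3, at 4.76, 4.86 and 5.34 in the 1% arrays, and at 5.81, 5.22 and 5.35 in the 10% arrays. The 3 arrays with LPS in their description were the 3 lowest, with vehicle replicate 3 just 0.01 below 10% replicate 2. Cxcl10, an interferon-induced chemokine that draws T cells, was at 3.27, 3.63 and 3.73 log2 units in the vehicle arrays, at 3.57, 3.38 and 3.51 in the 1% arrays, and at 2.98, 3.61 and 3.38 in the 10% arrays. Vehicle replicate 3 was the highest, 0.1 above vehicle replicate 2, and the groups overlapped.

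Icam1, the adhesion molecule by which vessel walls hold leukocytes, read 5.34, 5.28 and 5.38 log2 units in vehicle replicates 1, 2 and 3, 5.17, 5.09 and 5.18 in the 1% arrays, and 5.71, 4.85 and 4.97 in the 10% arrays. All 3 vehicle arrays lay above all 3 of the 1% arrays, while the 10% arrays held both the highest and the lowest value. The acute phase gene Lcn2, whose protein binds bacterial iron carriers, read 4.61, 4.34 and 4.24 log2 units in the vehicle arrays, 4.97, 4.66 and 4.03 in the 1% arrays, and 4.52, 4.42 and 4.36 in the 10% arrays. Only 1% replicate 3 was below vehicle replicate 3; the 1% group held the highest and lowest values. Saa3, an inducible serum amyloid A, read 5.33, 5.52 and 5.55 log2 units in the vehicle arrays, 5.53, 5.44 and 5.54 in the 1% arrays, and 5.71, 5.45 and 5.72 in the 10% arrays. Only a pair of 10% arrays exceeded vehicle replicate 3.

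**Figure D1:**
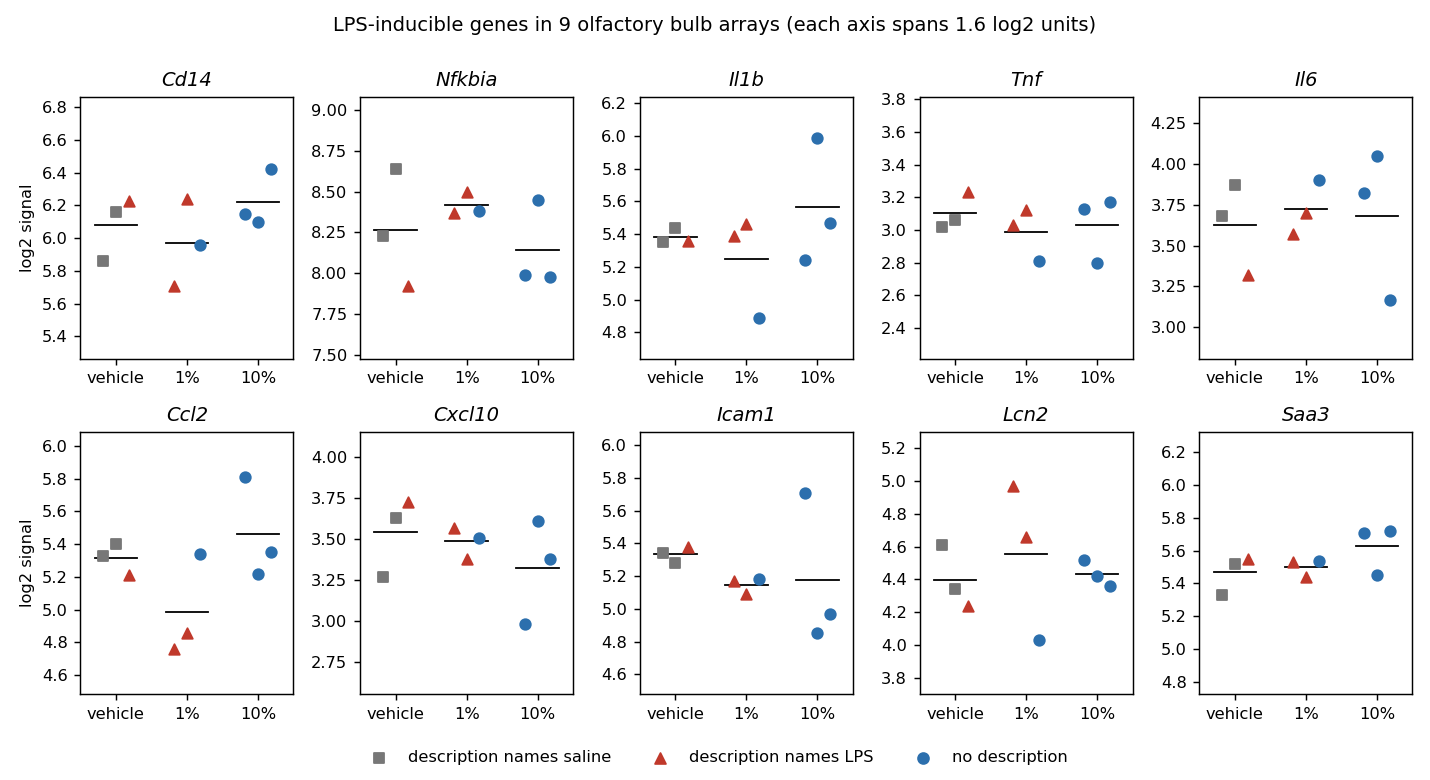
Log2 signal (vertical axis, 1.6 log2 units in every panel) of the 10 LPS-inducible genes in 9 olfactory bulb arrays, grouped by title; each point is 1 array, in replicate order from left to right, and lines are group means. Red triangles mark descriptions that name LPS, grey squares saline and blue circles no description; the triangles are mixed with the other points except for Ccl2, where they are the 3 lowest.

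Vehicle replicate 3 was then set against vehicle replicates 1 and 2, which share its title group and differ in the described injection. Of the 10 genes, 5 were higher and 5 lower in vehicle replicate 3, with a median difference of 0.02 log2 units, against −0.01 over all tested genes, of which 49.3% were higher. With limma, 0 of the 10 passed an adjusted p of 0.05, against 0.0328% of all genes, and for 0 of the 10 was the unadjusted p under 0.05, against 7.74% of all genes. The criterion in the deposited design text asks for that and also a fold over 2, and it called 0 of the 10 and 2.27% of all genes. Vehicle replicate 3 lay outside the span of the other vehicle arrays for 9 of the 10, above it for 5 and below it for 4, against 70.7% of all genes. It was the highest of the 9 arrays for 2 of the 10, Cxcl10 and Tnf, where 11.2% of all genes had their highest value in it.

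The largest positive difference among the 10 was that of Cxcl10, 0.28 ± 0.30 log2 units (SE; 95% confidence interval −0.38 to 0.94), and did not pass the test (limma adjusted p = 0.8989). Cd14 differed by 0.22 ± 0.29, Tnf by 0.19 ± 0.26 and Icam1 by 0.07 ± 0.33 log2 units. The largest difference of either sign was that of Nfkbia, −0.52 ± 0.29 log2 units (−1.15 to 0.12; limma adjusted p = 0.7227), toward lower and not higher signal. Il6 followed at −0.46 ± 0.34, Lcn2 at −0.23 ± 0.35 and Ccl2 at −0.15 ± 0.32 log2 units. Saa3 differed by 0.13 ± 0.24 and Il1b by −0.04 ± 0.34. The upper end of the 95% interval stayed below 1 log2 unit for all 10 genes, the highest being 1.92-fold for Cxcl10. These intervals take the lone array to vary like the others, and hold for signal on dim probe sets. They are not adjusted for the number of genes.

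The median absolute difference of the 10 genes was 0.205 log2 units, and markers of some cell types in the same array differed by more. In vehicle replicate 3 all 11 olfactory bulb neuron marker probe sets were lower, with a median of −1.06 log2 units, and 14 of 16 cortical ones were higher, with a median of 0.79; the share of these shifts in the 10 genes was not tested. Microglia and macrophage markers were higher in 8 of 12, with a median of 0.27, and neutrophil and monocyte markers in 9 of 12, with a median of 0.19. Olfactory ensheathing glia markers were lower in 7 of 8, with a median of −0.81, and meninges and choroid plexus markers in 6 of 9, with a median of −0.35. Medians were smaller for astrocyte (−0.103), endothelial and pericyte (0.115) and nasal epithelium and gland (−0.06) markers. None of these marker genes passed the limma adjustment. Against the 2 other arrays of high cortical signal, 1% replicate 2 and 10% replicate 2, vehicle replicate 3 was above both for 4 of the 10 genes (Cxcl10, Saa3, Icam1 and Tnf), below both for 4 (Nfkbia, Il6, Lcn2 and Il1b) and between them for Ccl2 and Cd14. It was lower, for example, for Nfkbia (7.92 against 8.50 and 8.45 log2 units) and Il6 (3.32 against 3.70 and 4.05), and higher for Tnf (3.23 against 3.12 and 2.80) and Cxcl10 (3.73 against 3.38 and 3.61).

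All 3 arrays whose description names LPS were next set against the others, with the title group in the model, where the 10% arrays carry no information on this term. A blank description counted as not naming LPS. In the 1% group, replicates 1 and 2 were thus set against replicate 3, which has no description. The text of replicates 1 and 2 names both oral oleacein and LPS, which cannot be told apart there. Of the 10 genes, 7 were higher and 3 lower, with a median of 0.08 log2 units, and 49.2% of all genes were higher. The limma test called 0 of the 10 at an adjusted p of 0.05 (0% of all genes), 0 at an unadjusted p under 0.05 (5.61% of all) and 0 when a fold over 2 was also asked for (0.454% of all). The largest was Il6 at −0.36 ± 0.24 log2 units (SE). Ccl2 differed by −0.34 ± 0.21 (limma adjusted p = 0.8719), and was the 1 gene of the 10 whose LPS-named arrays did not overlap the other 6, which 2.57% of all genes did. The largest positive differences were those of Lcn2, 0.28 ± 0.24, Il1b, 0.25 ± 0.23, and Tnf, 0.23 ± 0.18 log2 units. For Lcn2 this value rested on the 1% group: it was 0.79 without vehicle replicate 3, and −0.23 without 1% replicate 3, which leaves the vehicle arrays alone to carry the term. Without vehicle replicate 3 its unadjusted limma p was 0.01514 (adjusted p = 0.9992). Without the 3 arrays of high cortical signal, where 1% replicates 1 and 3 alone carry the term, it was 0.94 ± 0.31 with an unadjusted limma p of 0.01856 (adjusted p = 0.9994). Bulb neuron markers were lower in 11 of 11 probe sets in this comparison too, with a median of −0.73, and ensheathing glia markers in 6 of 8, with a median of −0.49. Microglia and macrophage markers were higher in 11 of 12, with a median of 0.34, and neutrophil and monocyte markers in 9 of 12, with a median of 0.17. The microglia and macrophage list deviated from its 9-array mean by −0.05, 0.27 and −0.34 log2 units in 1% replicates 1, 2 and 3. In vehicle replicates 1, 2 and 3 the list deviated by 0.02, 0.08 and 0.27. Its lowest value was −0.38, in 10% replicate 1, which has no description, like 1% replicate 3. The part of these markers in the values of the 10 genes was not tested.

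**Figure D2:**
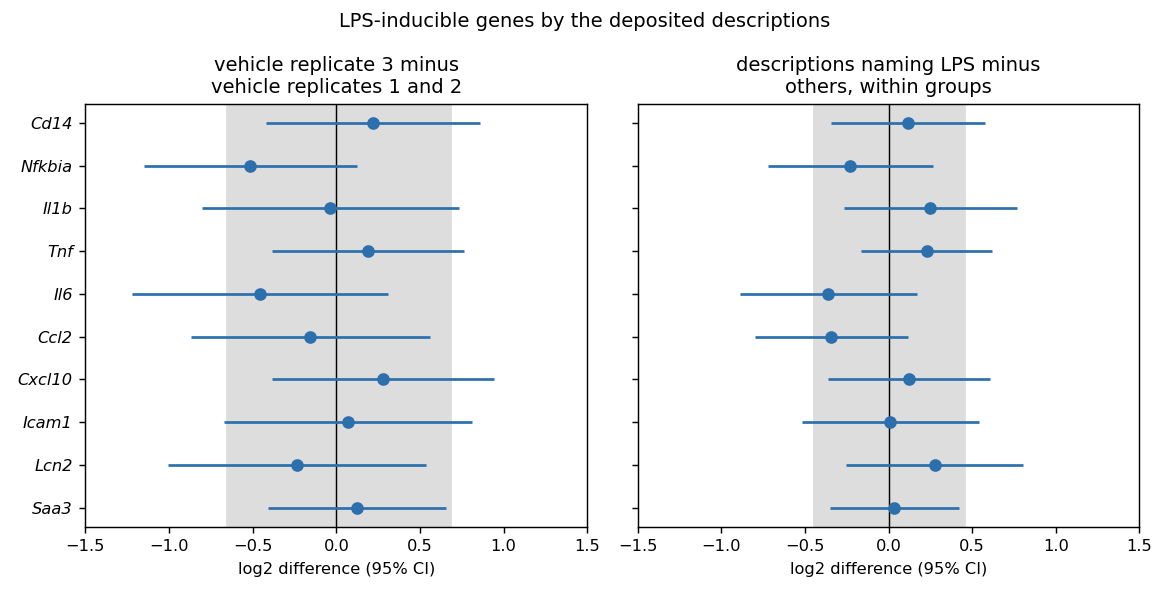
Log2 difference (horizontal axis) of each LPS-inducible gene, as a point with its 95% confidence interval, between vehicle replicate 3 and vehicle replicates 1 and 2 (left) and between arrays whose description names LPS and the others within title groups (right). The grey band holds the middle 90% of all 21367 tested genes; every interval crosses 0 and every point lies inside the band.

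The wider LPS response was read from 8 lists with 126 distinct genes, the 10 included. With the term for descriptions naming LPS, 73 were higher and 53 lower, with a median of 0.04 log2 units, and 0 passed the limma adjustment. An unadjusted limma p under 0.05 went with a higher value in 2 and a lower one in 8, or 7.94% against 5.61% of all genes. By list, the genes higher ran from 6 of 13 NF-kB subunits and inhibitors (median −0.168) to 12 of 15 interferon-stimulated genes (median 0.165). In vehicle replicate 3 against vehicle replicates 1 and 2, 56 were higher and 70 lower, with a median of −0.05 log2 units, and 0 passed the limma adjustment; an unadjusted p under 0.05 went with a higher value in 6 and a lower one in 6, which is 9.52% of the 126, against 7.74% of all genes. Among the 37 of them with a mean signal above the median of all genes, 10 were higher and 27 lower, with a median of −0.14, against −0.05 for all genes as bright. Receptor and adaptor genes were lower in 13 of 18, NF-kB subunits and inhibitors in 10 of 13, and glial response genes in 14 of 20. Chemokines were higher in 9 of 15, cytokines in 9 of 14, interferon-stimulated genes in 9 of 15, vascular genes in 8 of 14 and acute phase genes in 8 of 18.

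Named genes of these lists had larger differences than the 10, in both directions, and none passed the adjustment. The largest positive difference was in Pglyrp1, a secreted peptidoglycan-binding protein, at 6.28, 6.87 and 7.91 log2 units in vehicle replicates 1, 2 and 3, a difference of 1.34 ± 0.31 (limma adjusted p = 0.4267). In vehicle replicate 3 it was the highest of the 9 arrays, the next being 7.45 in 10% replicate 3. The neutrophil protein gene S100a9 differed by 1.06 ± 0.41, the cytokine Il1a by 1.03 ± 0.30, the haptoglobin gene Hp by 0.93 ± 0.39 and the B cell chemokine Cxcl13 by 0.84 ± 0.28 log2 units. Il1a (4.01 and 3.57) and Cxcl13 (4.03 and 4.51) in vehicle replicates 1 and 2 lay within the middle GC background span, 2.61 to 4.62. Hp was near its upper end there, at 4.51 and 4.66. Its value in vehicle replicate 3, 5.51, was also that of 1% replicate 3, which has no description. In the other direction, the interferon-induced membrane protein gene Ifitm3 differed by −1.22 ± 0.50, the NF-kB subunit Rel by −0.97 ± 0.35, the nuclear NF-kB cofactor Nfkbiz by −0.95 ± 0.30 and Irf9, a subunit of the interferon-activated transcription factor, by −0.92 ± 0.29. Stat3 and Cebpd, transcription factors of the acute phase response, differed by −0.81 ± 0.28 and −0.80 ± 0.34 log2 units. These genes were picked for their small p or large difference and describe no list as a whole.

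**Figure D3:**
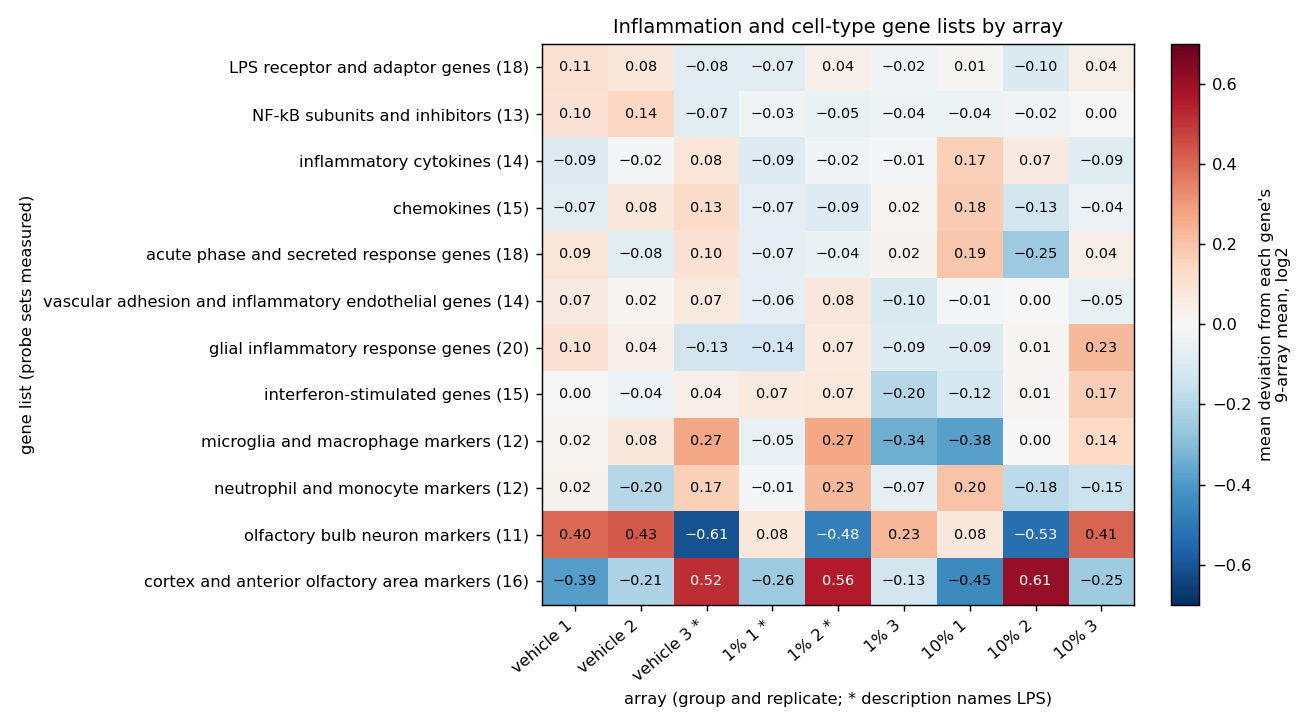
Mean deviation of each gene list from the 9-array mean of its genes, in log2 units (colour and printed value), for 8 inflammation lists and 4 cell-type marker lists (rows, with probe sets measured) in 9 arrays (columns; an asterisk marks a description naming LPS). The inflammation lists stay between −0.25 and 0.23 in all arrays, while bulb neuron markers reach −0.61 and cortical markers 0.52 in vehicle replicate 3, with like values in 1% replicate 2 and 10% replicate 2.

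By title group, 1% linalyl acetate was first compared with vehicle. Of the 10 genes, 4 were higher and 6 lower after 1% linalyl acetate, with a median difference of −0.09 log2 units, while 50.1% of all genes were higher. The limma test called 0 of the 10 after adjustment (0% of all genes), 0 at an unadjusted p under 0.05 (3.42% of all) and 0 with a fold over 2 added (0.164% of all). Ccl2 differed most, with a mean of 4.99 ± 0.31 log2 units in the 1% group and 5.31 ± 0.10 in the vehicle group (SD, n = 3); the gap was −0.33 ± 0.21 (SE; limma adjusted p = 0.9977). The 1% arrays did not lie together, since replicate 3 stood at the vehicle level. Icam1 had means of 5.15 ± 0.05 and 5.33 ± 0.05 log2 units (SD, n = 3), −0.19 ± 0.22 apart (SE), and was the 1 gene of the 10 whose groups did not overlap, as for 9.22% of all genes. The other 8 differed by −0.14 (Il1b) to 0.16 (Lcn2) log2 units.

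In the 10% group against vehicle, 6 of the 10 genes were higher and 4 lower, with a median of 0.05 log2 units, against 51.1% of all genes higher. Again 0 of the 10 passed the limma adjustment (0% of all genes), an unadjusted p under 0.05 (3.78% of all) or the addition of a fold over 2 (0.197% of all). The groups overlapped for all 10, and did not for 7.46% of all genes. The differences ran from −0.22 ± 0.20 for Cxcl10 to 0.18 ± 0.22 for Il1b (log2 units, SE; limma adjusted p = 0.9976 for both). Within the 10% group replicate 1 had the highest Ccl2 and Icam1 of the 9 arrays and replicate 2 the highest Il1b and Il6, so these genes did not peak in the same array.

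Between the doses, 6 of the 10 were higher at 10% than at 1% and 4 lower, with a median of 0.04 log2 units, and 50.4% of all genes were higher. Ccl2 had the largest difference, 5.46 ± 0.31 against 4.99 ± 0.31 log2 units (SD, n = 3), or 0.47 ± 0.21 (SE; 95% confidence interval 0.02 to 0.93). Its unadjusted limma p was 0.04413 and its adjusted p 0.9987, so it did not pass; it was the 1 gene of the 10 with an unadjusted p under 0.05, as had 3% of all genes. The ranges of the dose groups overlapped, since 1% replicate 3 (5.34) lay above 10% replicate 2 (5.22), and without 10% replicate 1 the difference was 0.30 with an unadjusted limma p of 0.1808. Il1b differed by 0.32 ± 0.22 and Cd14 by 0.25 ± 0.19 log2 units upward, and Nfkbia by −0.28 ± 0.21. After adjustment 0 of the 10 passed (0% of all genes), with a fold over 2 added 0 passed (0.108% of all), and in 0 of the 10 did the groups not overlap (7.1% of all). A test over the 3 groups together called 0 of the 10, adjusted (limma F test, 0% of all genes) or unadjusted (2.95% of all), with the lowest unadjusted p, 0.1109, for Ccl2.

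**Figure D4:**
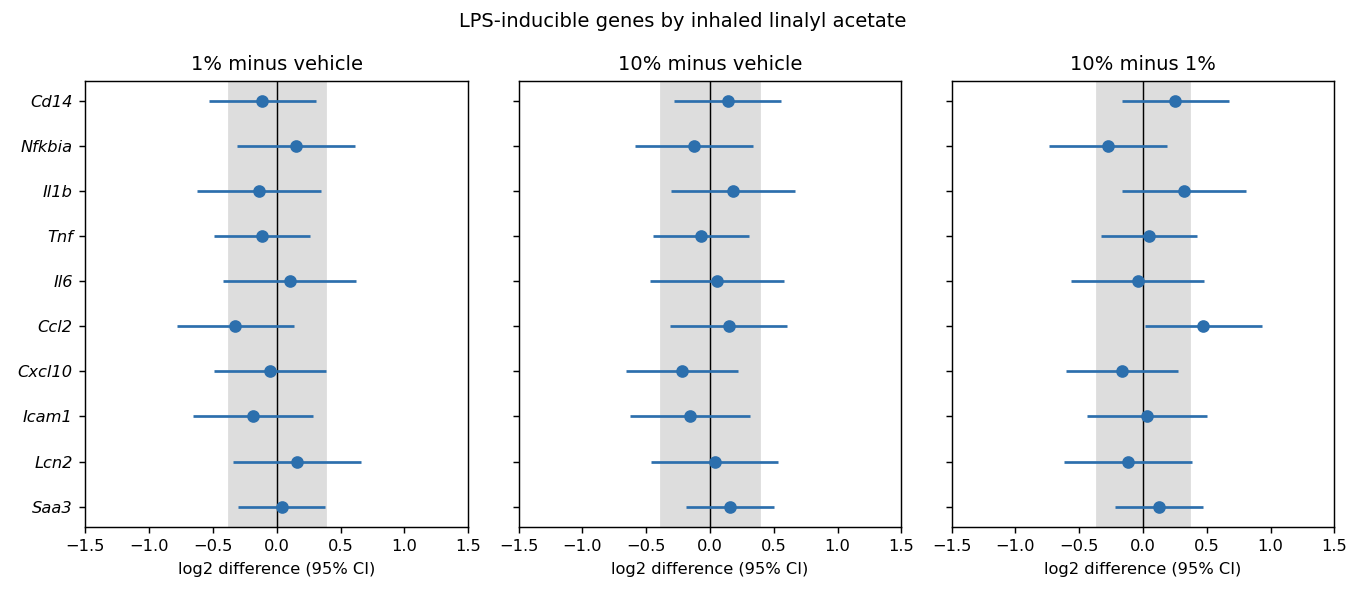
Log2 difference (horizontal axis) of each LPS-inducible gene, as a point with its 95% confidence interval from limma, for 1% minus vehicle, 10% minus vehicle and 10% minus 1% linalyl acetate (3 arrays a group). The grey band holds the middle 90% of all 21367 tested genes; the interval of Ccl2 between the doses, 0.02 to 0.93, is the 1 interval that does not cross 0, before any adjustment.

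The 126 pathway genes were also compared by inhaled dose. In the 1% group 53 were higher and 73 lower than in vehicle (median −0.06 log2 units), in the 10% group 60 were higher and 66 lower (median −0.02), and 0 passed the limma adjustment in either; these comparisons share the vehicle arrays. Ptgs2, the inducible cyclooxygenase, stood at 7.29, 8.35 and 7.05 log2 units in the vehicle arrays, at 6.28, 7.43 and 5.52 in the 1% arrays and at 5.56, 6.99 and 6.43 in the 10% arrays. All 10% arrays lay below all vehicle arrays, and 1% replicate 2 lay above a pair of vehicle arrays; the differences were −1.15 ± 0.50 at 1% and −1.24 ± 0.50 at 10% (SE; limma adjusted p = 0.9977 and 0.9976). Cp, the copper-carrying plasma protein ceruloplasmin, differed by −0.86 ± 0.30 log2 units at both doses and did not pass either. Microglia and macrophage markers were lower in 11 of 12 at 1% (median −0.10) and at 10% (median −0.21), and endothelial and pericyte markers in 9 of 10 at 1% (median −0.25) and 8 of 10 at 10% (median −0.27), with 0 past the adjustment; their part in the values of Ptgs2 and Cp was not tested. Between the doses, the hyaluronan receptor gene Cd44 was 0.67 ± 0.24 log2 units and the granulocyte growth factor gene Csf3 0.41 ± 0.17 higher at 10%, and the macrophage lysosomal gene Cd68 differed by −0.79 ± 0.35, none past the adjustment.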

How the data were processed

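The authors' deposited signal table gives log2 values, normalized with SST-RMA, a robust multi-chip method, per the deposited design text, in Transcriptome Analysis Console 4 per the submitters' processing notes. The authors' comparison tables give a p-value, an adjusted p-value and a signed fold score. No genome build is named for the arrays. That design text also names a human cell line and array; the probe sets are mouse. Calendar dates stood in 27 cells of the signal table and were decoded; it differed from the series matrix by at most 0.071 log2 units. Of 22206 probe sets, 836 with several symbols and 3 with none were left out. Groups follow the titles. Models were fitted with limma 3.58.1 (R 4.3.3) over 21367 probe sets, with Benjamini-Hochberg adjustment over all at 0.05: title groups; vehicle replicate 3 as its own level; and a term for descriptions naming LPS. Members and lists were chosen with earlier results of these data known. All 10 members were named, and of other lists up to 3 genes per comparison with the smallest p or, in vehicle replicate 3, the largest difference. Code was tested on simulated data. Alternatives covered normalization, probe filters, array weights, blocks and left-out arrays.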

Additional observations from a re-analysis of the deposited data

How the results depend on the processing

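Under 21 other settings, 0 of the 10 genes were called in any of the comparisons they were run for. This includes the replicate block (0 of 10 in each) and leaving out each array in turn (0 to 0). Calls over all genes did change with the arrays used. Without vehicle replicate 3 they went from 0 to 7 at 1%, 12 at 10% and 8 over the 3 groups, and stayed 0 between doses. Without the 3 arrays of high cortical signal, which include it, they were 11, 12, 11 and 0. The settings were the series matrix values, quantile normalization, all probe sets, the dimmest 25% left out, array weights, a robust trend, other sets of arrays, and the fold criterion. With the dimmest 25% left out, only 6 of the 10 genes were tested. The fold criterion used an unadjusted limma p, and the other settings the adjusted one. The median over the 10 genes ran from −0.05 to 0.14 log2 units for vehicle replicate 3 against the other vehicle arrays (0.14 with the replicate block, −0.01 against all 8 other arrays), from −0.01 to 0.12 for descriptions naming LPS, from −0.16 to −0.01 at 1%, from −0.02 to 0.14 at 10% and from 0.003 to 0.188 between doses. Of 880 single-gene differences, 16 moved by more than 1 SD between replicates; the cause was not tested. For Ccl2 between doses, 7 of 18 settings kept an unadjusted p under 0.05, with differences from 0.30 to 0.65. Replicate numbers did not pair the arrays. Taken as deviations from the title group means, same-numbered arrays correlated at −0.161 to 0.279. Of the 9 arrays, 3 correlated best with their own number among the arrays of other groups. Vehicle replicate 3 cannot be set against its group when it, or the 3 arrays of high cortical signal, is left out. Precision was limited by 3 arrays a group and dim probe sets.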

Other observations

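Of the 10 genes, Il1b and Ccl2 had a range above 1 log2 unit over the 9 arrays. Among 6044 genes with such a range, the most like Il1b were Cenpm (Pearson's r = 0.966 over 9 arrays) and Hils1 (r = 0.965), and the most like Ccl2 were Uvssa (r = 0.94) and Zfp553 (r = 0.921). These are descriptions over arrays that share groups and tissue makeup, and carry no test.

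So few genes passed the limma adjustment in vehicle replicate 3 against vehicle replicates 1 and 2 that the absence of the 126 LPS pathway genes among them says nothing about those genes. These calls set a single array against others: 7 genes passed, but 1 without vehicle replicate 1, 1 without vehicle replicate 2, 0 when only the vehicle arrays were fitted and 0 against all 8 other arrays; without one of the other groups' arrays, 3 (10% replicate 3) to 11 (10% replicate 2) passed. The early activity genes Fos (−4.26 ± 0.41 log2 units, SE), Npas4 (−4.21 ± 0.50), Junb (−3.58 ± 0.35), Btg2 (−3.31 ± 0.38) and Fosb (−3.06 ± 0.32) were lower. The tachykinin gene Tac1 (3.95 ± 0.52) was higher. These genes were named after their values were seen.

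In the authors' deposited tables the signed folds of the 10 genes reached at most 1.42 in size, for Ccl2 at 1%, with adjusted p-values of 0.9996 at 1% and 0.9997 at 10%. For 3 of the 20 member folds (Il1b at 1%, Cd14 and Tnf at 10%) the authors' deposited table gave the opposite sign to the limma difference of array means.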
